A study of Hordeum vulgare with 24 samples.

Results

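Among genes counted in young barley spikes, 126 of 39734 changed their level with growth temperature in plants mutant for HvMADS1 (mads1) but stayed near level in wild-type plants (WT). They were chosen by values of these same libraries. Levels are CPM, the read count scaled to the library's total. The ratio of the group mean in warm growth to that in cool growth, with 0.5 CPM added to each, had to be at least 2 in mads1 at both developmental stages for the 80 rising genes. It had to be at most 0.5 at both stages for the 46 falling genes. In WT the same ratio had to lie between 0.67 and 1.5 at both stages, which 36103 genes met. The contrast between temperatures in either genotype is therefore described below and not tested.

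The libraries came from inflorescences of the cultivar Golden Promise, grown with a 16 h photoperiod in a cool regime (LT, 15 °C by day and 10 °C by night) or a warm one (HT, 25 °C by day and 20 °C by night). Spikes were taken at stages W2.5 and W3.5 of the Waddington scale, which follows early spike and floret development. WT and mads1 plants in each of the 4 settings gave 8 groups of 3 libraries, each made from a pool of 15 to 20 spikes and given in the labels as a biological replicate. What kind of mutation the plants carry, how many mutant lines were used and whether they were backcrossed is not given in the labels. Whole pools of spikes were sequenced, so fewer cells of a type and less RNA per cell cannot be told apart.

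HvMADS1 is a SEPALLATA gene, one of the MADS-box transcription factors that bind DNA as part of multi-protein complexes and help set the identity of floral organs and meristems. In barley the gene is known for keeping the spike determinate and unbranched when the ambient temperature is high. Neither the files nor the reference table pairs the gene identifiers with names (0 of 39734 matched), so members are given by identifier and no function is assigned to any of them.

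Library totals ran from 13283533 to 19864259 reads, and 3 reads, taken here as the floor of detection, correspond to 0.151 to 0.226 CPM. Replicate 3 of WT HT W2.5 stood apart, with a TMM factor, edgeR's scaling of each library, of 0.575 where the others had 0.959 to 1.08, and neither the choice of genes nor the tests use it. The mutated gene, taken as HORVU4Hr1G067680 from knowledge of the family and not checked by sequence, was itself uneven in warm mads1. It stood at 8.63, 13.7 and 9.38 CPM at W2.5 and at 0, 0.334 and 12.8 CPM at W3.5. In cool mads1 it was at 15.1, 23.5 and 14.1 CPM at W2.5 and at 43.8, 45.5 and 49.1 CPM at W3.5. The third library of mads1 HT W3.5 thus held HvMADS1 reads at the level of mads1 HT W2.5, whereas the other two held almost none. Cool WT held 39.1, 43.4 and 42.4 CPM at the earlier and 59.4, 65.4 and 65.8 CPM at the later stage, and warm WT 6.72, 10.5 and 5.27 CPM at the earlier and 63.2, 63.5 and 67.7 CPM at the later. None of 13 inflorescence MADS-box genes listed from knowledge of the family, HvMADS1 included, was among the 126. Only HvMADS14 and HvMADS15 of the 13 met the WT condition; HvMADS14 had mads1 ratios of 1.202 and 1.31, and HvMADS15 0.707 and 0.856. HvMADS34 came closer to the mads1 limit, at 0.425 and 0.516, but its WT ratios, 0.453 and 0.600, lay outside.

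The 126 genes fell into 2 kinds by their level in WT. A group mean of 1 CPM or more in some WT group was found for 27 rising and 12 falling genes. The other 53 rising and 34 falling genes were quiet in WT, with a mean under 1 CPM in all 4 WT groups. For 6 rising and 14 falling genes no read was counted in any of the 12 WT libraries, and no share over all genes was computed for this. For a gene near 0 in WT the added 0.5 CPM holds the WT ratio close to 1, so for these 87 genes a level ratio says little beyond the low number of reads. All 126 passed the filter on low counts, most of the quiet ones only through the mads1 groups in which they were high.

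**Figure D1:**
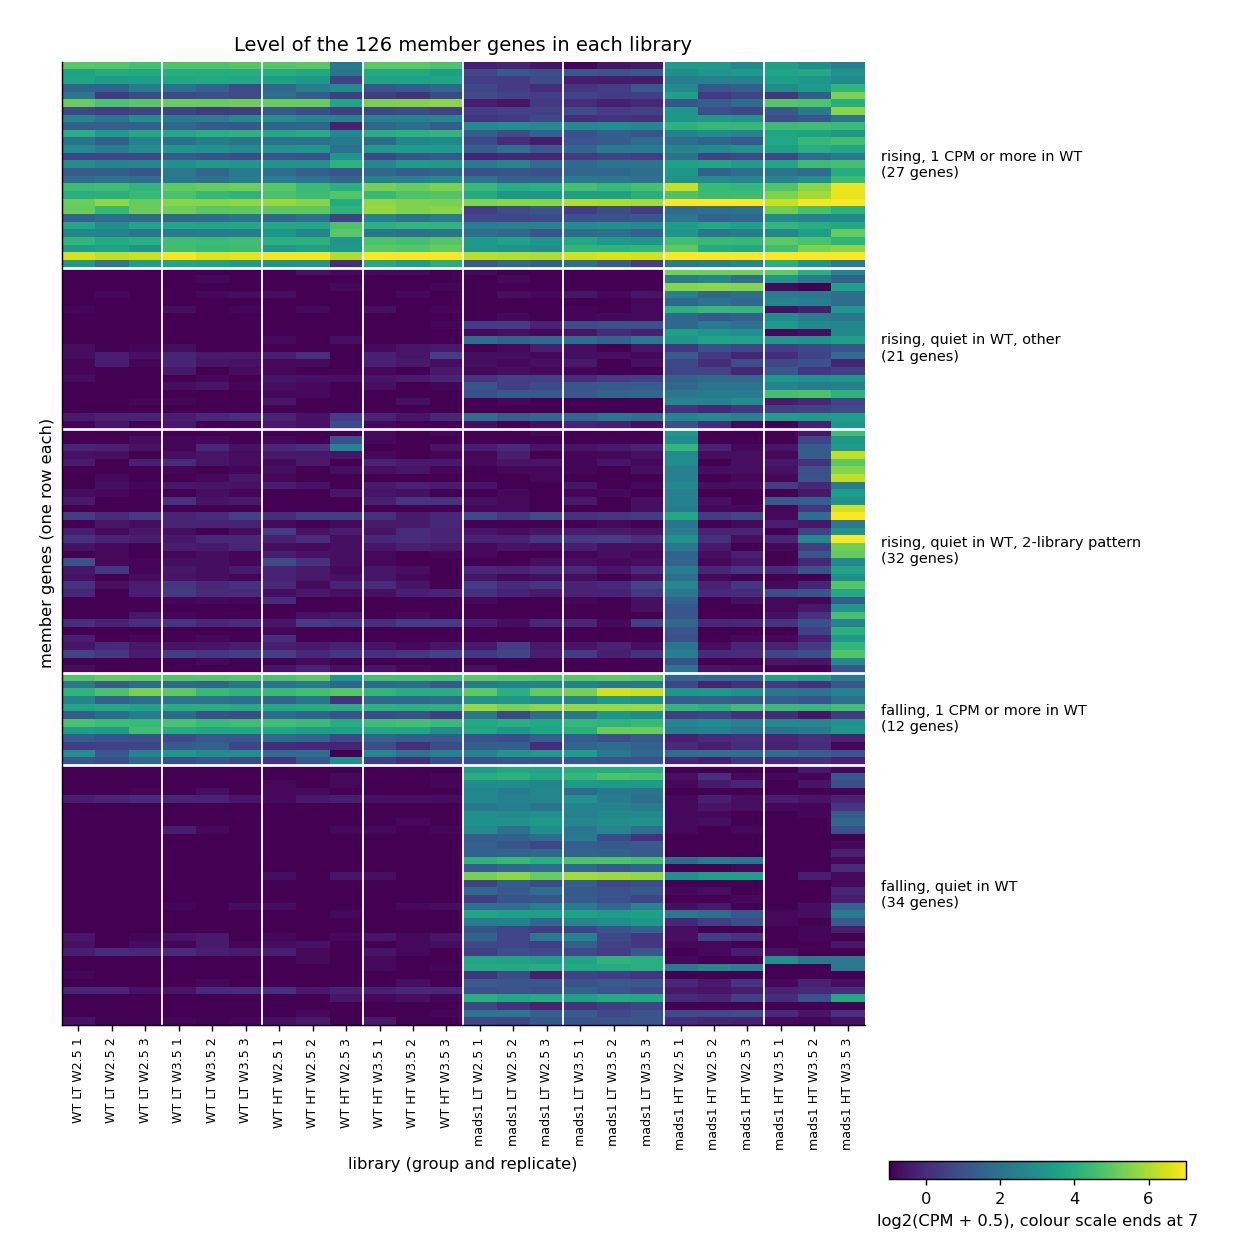
Each line is 1 of the 126 genes and each column 1 of the 24 libraries, ordered by genotype, temperature and stage; colour gives log2(CPM + 0.5). As a set, falling genes that are quiet in WT are brighter in the 6 cool mads1 libraries than elsewhere, many of them faintly. Among rising genes quiet in WT, 32 are brighter mainly in replicate 1 of mads1 HT W2.5 and replicate 3 of mads1 HT W3.5.

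Among rising genes that are expressed in WT, the highest temperature ratios in mads1 were those of genes that were low in cool mads1. HORVU5Hr1G054000 stood at 30.2, 28.8 and 24.1 CPM in WT LT W2.5, 26.8, 26.7 and 28.5 CPM in WT LT W3.5, 28.4 and 31.1 CPM in WT HT W2.5 and 30.8, 30.3 and 26.5 CPM in WT HT W3.5. In cool mads1 it was at 0.298, 0.346 and 0.181 CPM at W2.5 and at 0.0572, 0.185 and 0.246 CPM at W3.5. Warm mads1 held 9.43, 9.40 and 6.68 CPM at W2.5 and 11.1, 7.39 and 4.83 CPM at W3.5. Every warm mads1 library lay above every cool mads1 library and below all 11 of these WT libraries. Its temperature ratios in mads1 were 11.6 and 12.5, and those in WT 1.07 at both stages. The WT library left out held 4.15 CPM, below both of its sister libraries.

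HORVU3Hr1G112700 had the same order of groups. It was at 1.13, 1.90 and 1.45 CPM in mads1 LT W2.5 and at 7.41, 8.42 and 9.504 CPM in mads1 HT W2.5. At W3.5 it was at 1.77, 1.60 and 1.91 CPM in cool mads1 and at 12.1, 13.7 and 8.13 CPM in warm mads1. The 4 WT group means lay between 12.8 ± 1.75 (SD, n = 3, HT W3.5) and 15.3 ± 0.207 (SD, n = 3, LT W3.5) CPM. Warm mads1 therefore overlapped WT at W3.5 and lay below it at W2.5, and cool mads1 lay below WT at both stages.

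A group of 8 among the 27 genes shared a cool mads1 level at or below 0.5 times that of WT at both stages, a grouping made after the values were seen. Over these 8 genes the ratio of mads1 to WT in cool growth ran from 0.0275 to 0.336 at W2.5 and from 0.0238 to 0.216 at W3.5. In warm growth its median was 0.471 at W2.5 and 0.613 at W3.5. Of all 18722 genes that passed the filter on low counts, 0.433% had cool mads1 at or below 0.5 times WT at both stages. The rule requires mads1 to differ from WT in its temperature ratio, so these counts are partly set by it and are given as a description. For all 8 genes the warm and cool mads1 libraries did not overlap at either stage. Of the 18722 genes, 15.8% were separated in that direction at both stages, and the choice of genes partly fixes this. For 3 further genes warm mads1 was at least 2 times WT at both stages, which 1.09% of the 18722 genes showed, and 16 departed from WT by 2-fold at both stages in neither temperature.

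**Figure D2:**
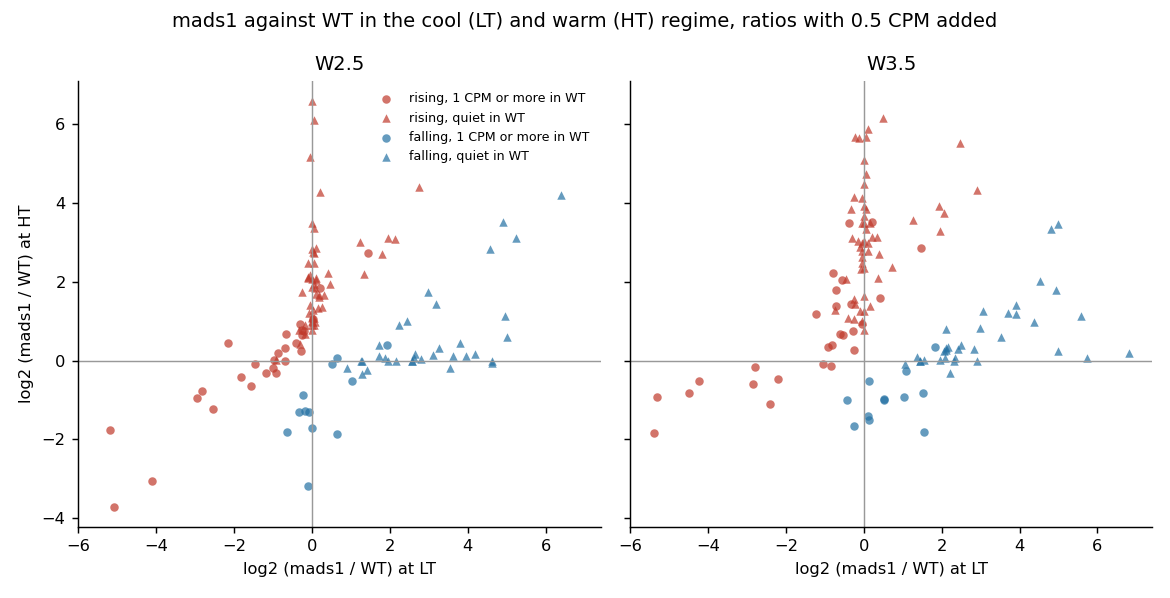
The log2 ratio of mads1 to WT in cool growth (horizontal) and warm growth (vertical) is plotted at each stage for all 126 genes, with 0.5 CPM added to each group mean. Rising genes quiet in WT centre near 0 on the cool axis, with medians of 0.05 and 0 and single genes up to 2.91, falling genes quiet in WT spread to the right along it, and the 8 rising genes that were low in cool mads1 lie farthest to the left at W3.5.

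The 16 include genes that were high in every group. HORVU5Hr1G070740 was at 73.0, 68.9 and 66.2 CPM in mads1 LT W2.5, and at 139, 144 and 142 CPM in mads1 HT W2.5. At W3.5 it was at 87.6, 93.7 and 89.3 CPM in cool mads1 and at 297, 269 and 247 CPM in warm mads1. In WT the group means were 84.8 ± 9.79 (SD, n = 3) CPM in LT W2.5, 118 ± 1.16 (SD, n = 2) in HT W2.5, 109 ± 12.2 (SD, n = 3) in LT W3.5 and 161 ± 23.01 (SD, n = 3) in HT W3.5. Its WT ratios, 1.40 and 1.48, stood just within the limit of 1.5, so its WT means were also higher in warm than in cool growth, by less. HORVU1Hr1G015050 was less even, at 9.48, 8.25 and 7.16 CPM in cool and 32.0, 14.6 and 13.6 CPM in warm mads1 at W2.5. At W3.5 it was at 18.1, 18.0 and 19.0 CPM in cool and 22.7, 42.0 and 49.1 CPM in warm mads1. Its warm and cool mads1 libraries did not overlap, but 1 warm library at W2.5 stood above the other two, and without it the gene no longer met the rule.

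The rising genes quiet in WT carried the highest temperature ratios in mads1. HORVU7Hr1G047340 stood at 39.2, 37.8 and 39.6 CPM in mads1 HT W2.5 and at 32.4, 15.8 and 5.89 CPM in mads1 HT W3.5. In the 6 cool mads1 libraries a single read was counted for it, at 0.0596 CPM in replicate 1 of LT W2.5, and no WT library held more than 2 reads. It was thus present in all 6 warm mads1 libraries and at or under the 3-read floor in the other 18. HORVU5Hr1G064100 was at 17.3, 19.9 and 19.5 CPM in mads1 HT W2.5, but at 0.136, 0.278 and 8.46 CPM in mads1 HT W3.5. At W3.5 the third library held 128 reads and the others 2 and 5, and without that library the gene no longer met the rule.

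In all, 5 rising genes were on in every warm mads1 library at 1 CPM or more and at or under 3 reads in every cool one. No share over all genes was computed for this count, which the choice of genes partly sets. The warm and cool mads1 libraries did not overlap at either stage for 43 of the 80 rising genes, 24 of the 27 expressed in WT and 19 of the 53 quiet in WT. Of all 18722 genes 15.8% were separated in that direction at both stages. That separation is partly fixed by the choice of genes. The change was larger at W3.5 than at W2.5 for 63 of the 80, with median log2 ratios of 1.42 at W2.5 and 2.504 at W3.5, where the rule required at least 1 at each stage. The same ratios chose the genes, and no share over all genes was computed. For 32 quiet genes, described next, that rested on 1 library per warm mads1 group, the median W3.5 ratio was 7.83. It was 4.15 for the 21 other quiet genes. Among those expressed in WT it was 8.53 for the 8 low in cool mads1 and 3.06 for the 19 others.

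Many rising genes rested on 1 library in each warm mads1 group. Replicate 1 of mads1 HT W2.5 and replicate 3 of mads1 HT W3.5 each stood at least 3 times above both sister libraries, with 0.5 CPM added, for 34 of the 80 rising genes. This count was defined after the values were seen, and 0.555% of the 18722 genes showed it. Of the 34, 32 were quiet in WT and 2 were expressed there, and none of the 46 falling genes showed it. Over the 32, the median level in mads1 HT W2.5 was 4.71 CPM in replicate 1 and 0.116 and 0.128 CPM in the others. In mads1 HT W3.5 the medians were 0.0678, 0.806 and 13.2 CPM. Every median in cool mads1 and in WT lay between 0.0531 and 0.18 CPM, at 3 reads or fewer.

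**Figure D3:**
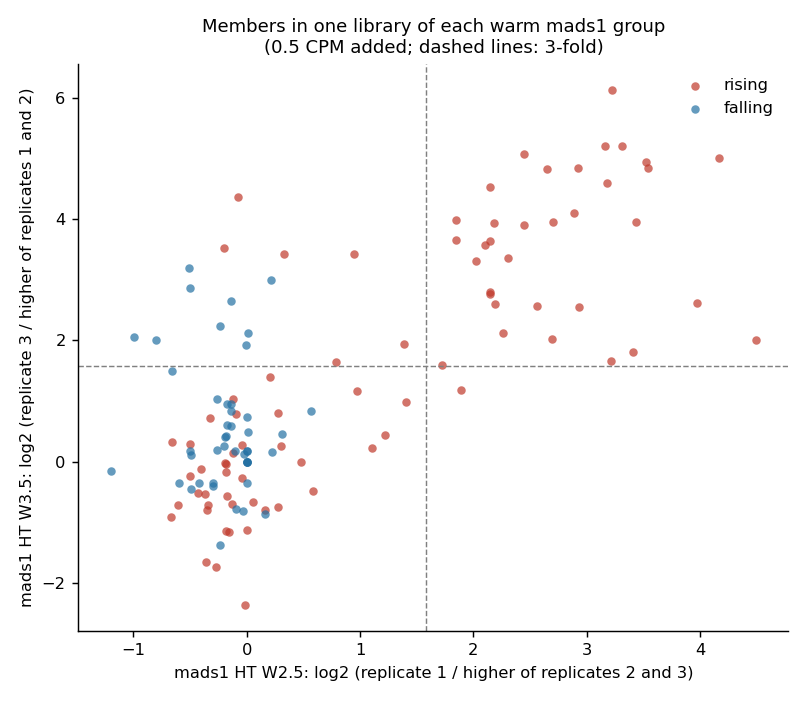
For each member the horizontal axis gives replicate 1 of mads1 HT W2.5 over the higher of its sisters, and the vertical axis replicate 3 of mads1 HT W3.5 over the higher of its sisters, both as log2 with 0.5 CPM added. The 34 rising genes beyond both dashed 3-fold lines form the upper right group, which holds no falling gene.

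Among these genes are 2 runs of 3 neighbouring identifiers, named here after their values were seen. In the first run HORVU3Hr1G065630 was at 5.08, 0 and 0.0642 CPM in mads1 HT W2.5 and at 0.0678, 1.501 and 73.7 CPM in mads1 HT W3.5. HORVU3Hr1G065640 was at 13.8, 0.813 and 1.09 CPM and at 0.0678, 3.22 and 137 CPM in the same libraries. HORVU3Hr1G065620 was at 5.02, 0.464 and 0.514 CPM and at 1.09, 1.45 and 28.5 CPM. All 3 were highest in the same library of each group. In the second run HORVU7Hr1G041230, HORVU7Hr1G041260 and HORVU7Hr1G041300 were at 6.74, 4.10 and 5.20 CPM in replicate 1 of mads1 HT W2.5 and at 78.2, 37.2 and 46.6 CPM in replicate 3 of mads1 HT W3.5. In all 6 genes replicate 2 of HT W3.5 lay between its sisters, and WT and cool mads1 libraries stayed at 1.32 CPM or less. Replicate 3 of mads1 HT W3.5 is also the library of that group that held HvMADS1 reads, whereas all 3 libraries of mads1 HT W2.5 held them; the part of either in the gene values was not tested.

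Without those 2 libraries the rule chose 33 rising genes, 29 of them among the 80. Of the 29, 14 were expressed in WT and 15 were quiet there. Leaving out replicate 1 of mads1 HT W2.5 alone gave 40 rising genes, and leaving out replicate 3 of mads1 HT W3.5 alone gave 46. Each of 21 rising genes met the rule whichever single library was left out, among them HORVU5Hr1G054000, HORVU3Hr1G112700 and HORVU7Hr1G047340. The 21 rising genes that were quiet in WT without the 2-library pattern had medians that were even between libraries, at 2.76, 3.72 and 3.34 CPM in mads1 HT W2.5 and 4.75, 4.22 and 4.89 CPM in HT W3.5. Of these 21, 18 did not overlap between warm and cool mads1 at either stage, against 15.8% of the 18722 genes. Without the 2 libraries 15 of the 21 were kept. The 21 are the quiet rising genes left once those with the 2-library pattern were set apart, after the values were seen. The even medians, the separation and the number kept thus partly follow from that step and from the choice of members. Single genes among the 21 were uneven, as HORVU7Hr1G047340 and HORVU5Hr1G064100 show at W3.5.

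Most falling genes were quiet in WT and counted mainly in cool mads1. HORVU2Hr1G001180 stood at 10.2, 13.1 and 12.2 CPM in mads1 LT W2.5 and at 16.0, 14.9 and 15.4 CPM in mads1 LT W3.5. It had no read in mads1 HT W2.5 and 0, 0.222 and 0.0661 CPM in mads1 HT W3.5. No read was counted for it in the 12 WT libraries. The gene was thus seen in the 6 cool mads1 libraries and at most at trace level in the remaining 18. HORVU4Hr1G068780 had the same form, at 15.4, 17.7 and 13.6 CPM in mads1 LT W2.5 and 19.3, 25.9 and 24.5 CPM in mads1 LT W3.5. In warm mads1 it was at 0.122, 0.581 and 0.0642 CPM at W2.5 and at 0.0678, 0.0556 and 1.79 CPM at W3.5, the last again in replicate 3.

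**Figure D4:**
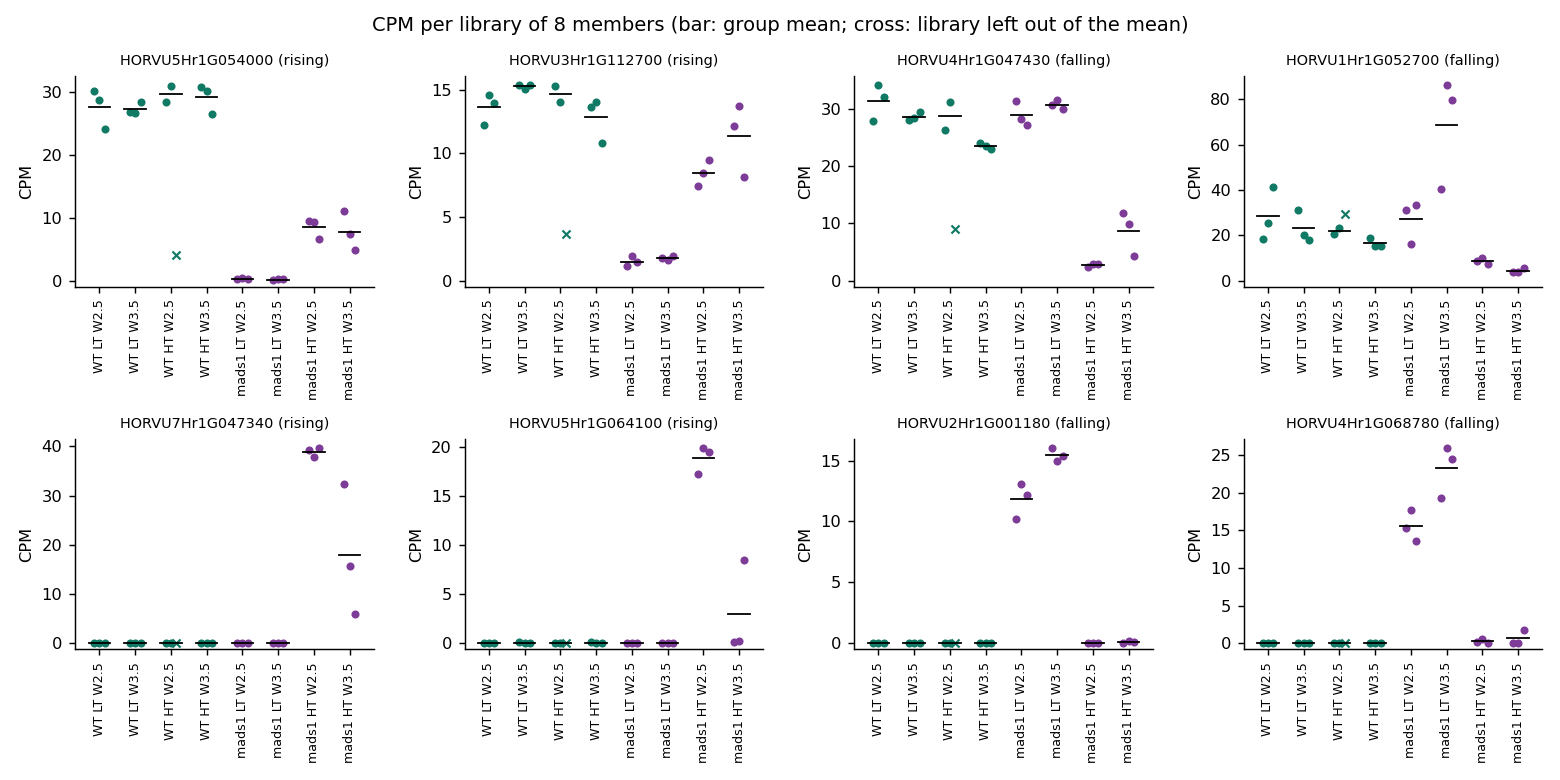
Points give the CPM of each library for 8 members, 4 expressed in WT above and 4 quiet in WT below, with WT in green and mads1 in purple, the bar as the group mean and a cross for the WT library left out of it. HORVU2Hr1G001180 and HORVU4Hr1G068780 stand above 10 CPM in cool mads1 only, and HORVU7Hr1G047340 above 5 CPM in warm mads1 only.

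Over the 34 falling genes quiet in WT the medians were 3.67, 3.40 and 3.40 CPM in mads1 LT W2.5 and 3.97, 2.44 and 2.86 CPM in mads1 LT W3.5. In warm mads1 they were 0.0612, 0.116 and 0.0642 CPM at W2.5 and 0, 0.0278 and 0.331 CPM at W3.5. For 33 of the 34 the cool mads1 level was at least 2 times that of WT at both stages, which 1.03% of the 18722 genes showed; for a gene quiet in WT the rule for falling genes nearly fixes this. Warm and cool mads1 libraries did not overlap at either stage for 44 of the 46 falling genes, against 15% of the 18722 genes, a separation partly fixed by the choice. Replicate 3 of mads1 HT W3.5 was the highest of its group for 31 of the 46. It stood at least 3 times above both sisters for 9 of the 34 that are quiet in WT, against 256 of the 18722 genes. The falling set depended little on the 2 uneven libraries: without both the rule chose 48 falling genes, of which 45 were among the 46. Each of 34 met the rule whichever single library was left out.

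Falling genes expressed in WT were 12, and 5 of them had warm mads1 at or below 0.5 times WT at both stages, which 0.32% of the 18722 genes showed. The same group means chose the genes, so a departure from WT is partly built in. HORVU4Hr1G047430 stood at 31.5, 28.3 and 27.3 CPM in mads1 LT W2.5 and at 2.39, 2.90 and 2.83 CPM in mads1 HT W2.5. At W3.5 it was at 30.7, 31.6 and 30.04 CPM in cool and at 11.8, 9.89 and 4.23 CPM in warm mads1. WT group means ran from 23.6 ± 0.453 (SD, n = 3, HT W3.5) to 31.4 ± 3.23 (SD, n = 3, LT W2.5) CPM. Cool mads1 was thus at the WT level and every warm mads1 library lay below all WT libraries used, with ratios in mads1 of 0.109 and 0.292. The WT library left out held 9.10 CPM, below both of its sisters.

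HORVU1Hr1G052700 also lay below every WT library in warm growth, at 8.63, 9.87 and 7.51 CPM in mads1 HT W2.5 and 3.94, 3.78 and 5.42 CPM in mads1 HT W3.5. Cool mads1 was at 31.4, 16.2 and 33.4 CPM at W2.5 and at 40.2, 86.2 and 79.9 CPM at W3.5. Its WT group means lay between 16.5 ± 2.07 (SD, n = 3, HT W3.5) and 28.4 ± 11.7 (SD, n = 3, LT W2.5) CPM, and the cool mads1 mean at W3.5, 68.8 ± 24.9 (SD, n = 3) CPM, stood above all of them. HORVU4Hr1G026960 had the other order, with cool mads1 above WT. It stood at 55.3, 42.3 and 51.8 CPM in mads1 LT W2.5 and 54.0, 55.2 and 57.8 CPM in mads1 LT W3.5, against 19.2, 16.9 and 23.1 CPM in HT W2.5 and 21.2, 19.8 and 24.5 CPM in HT W3.5. The WT group means were 12.7 to 17.1 CPM, so all warm mads1 libraries but 1 lay above each of them.

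The limits of the rule divided genes that were close. HORVU6Hr1G019080, just inside for rising genes, had mads1 ratios of 2.01 and 3.85, and HORVU7Hr1G034350, just outside, had 1.98 and 2.84. HORVU5Hr1G024390, just inside for falling genes, had 0.458 and 0.453, and HORVU2Hr1G079610, just outside, had 0.497 and 0.504.

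The rule set no limit on the level of a gene over both temperatures, and that level was tested. The same group means entered the rule, so these tests are not independent of the choice. Where cool mads1 stood at the WT level, as for HORVU4Hr1G047430, the tested difference partly restates the warm departure behind the choice. Tests were run on the 23 libraries with edgeR's quasi-likelihood test and Benjamini-Hochberg adjustment over 18722 genes, with an adjusted p under 0.05 as the threshold for a call. They are given for the 39 genes expressed in WT. Most genes quiet in WT passed the filter only through the mads1 groups in which they were high. The WT level of at least 1 CPM that defined the 39 is 1 side of the genotype comparison.

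As the mean of both temperatures, 2 of the 27 rising genes were higher and 12 lower in mads1 than in WT at W2.5, against 3.86% higher and 4.66% lower among the 18722 genes. At W3.5, 4 were higher and 10 lower, against 12.5% and 10.8%; without replicate 1 of mads1 HT W3.5, 9 were higher and 10 lower. Their median log2 fold change was -0.60 at W2.5 and 0.04 at W3.5, and that of the 18722 genes was 0.0073 and -0.0037. With replicate 3 of WT HT W2.5 kept, 12 rising genes were called at each stage, and without the 2 uneven mads1 libraries 17 and 14. The largest differences were those of HORVU2Hr1G016470 and HORVU5Hr1G054000. HORVU2Hr1G016470 was at 0.298, 0.173 and 0.783 CPM in mads1 LT W2.5, 1.71, 2.15 and 3.02 CPM in HT W2.5, 0.515, 0.308 and 0.431 CPM in LT W3.5 and 28.9, 27.1 and 15.2 CPM in HT W3.5. Its WT group means lay between 30.7 ± 5.60 (SD, n = 3, LT W2.5) and 45.3 ± 3.24 (SD, n = 3, HT W3.5) CPM, and no mads1 library reached any of them. Its log2 fold change between mads1 and WT was -5.04 (SE 0.20, adjusted p = 1.97e-13, edgeR) at W2.5 and -3.62 (SE 0.18, adjusted p = 1.11e-11, edgeR) at W3.5. For HORVU5Hr1G054000 the values were -4.17 (SE 0.18, adjusted p = 1.05e-12, edgeR) and -4.58 (SE 0.19, adjusted p = 4.88e-13, edgeR).

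**Figure D5:**
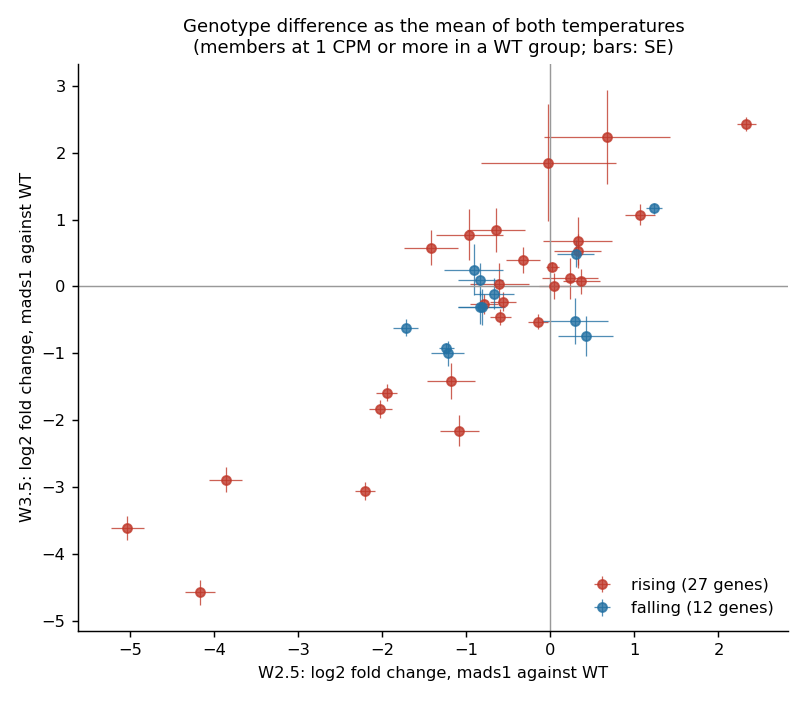
Each point is 1 of the 39 members expressed in WT, placed by its log2 fold change between mads1 and WT as the mean of both temperatures, at W2.5 (horizontal) and W3.5 (vertical), with bars for the standard error. HORVU2Hr1G016470 and HORVU5Hr1G054000 lie farthest to the lower left, at -5.04 and -4.17 on the horizontal axis.

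Of the 12 falling genes, 1 was higher and 3 were lower in mads1 at W2.5, against 3.86% and 4.66% of the 18722 genes. At W3.5, 1 was again higher and 3 were lower, against 12.5% and 10.8%. The W2.5 count was 7, with 6 lower, when replicate 3 of WT HT W2.5 was kept. HORVU4Hr1G026960 was higher in mads1, by 1.23 (log2, SE 0.09, adjusted p = 8.29e-09, edgeR) at W2.5 and 1.17 (SE 0.09, adjusted p = 4.79e-09, edgeR) at W3.5. HORVU4Hr1G047430 was lower, by -1.72 (log2, SE 0.15, adjusted p = 3.86e-08, edgeR) and -0.62 (SE 0.13, adjusted p = 0.00212, edgeR). With replicate 3 of WT HT W2.5 kept, the W3.5 difference of HORVU4Hr1G047430 missed the threshold (-0.59, adjusted p = 0.0548, edgeR).

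Between stages, again as the mean of both temperatures, 9 of the 27 rising genes were higher and 2 lower at W3.5 than at W2.5 in mads1, against 11.6% and 11.4% of the 18722 genes. In WT 3 were higher and none lower in edgeR's test (8 at an unadjusted p under 0.05, and 4 higher and none lower with DESeq2), against 8.46% and 10%. Of the 12 falling genes 3 were higher at W3.5 in mads1 and none was called in WT, where 4 had an unadjusted p under 0.05 and DESeq2 called 1, and where a fit of only the compared groups called 3. The mads1 count of 11 rising genes became 17 without replicate 1 of mads1 HT W2.5. The count of 3 falling genes became 1 without replicate 3 of mads1 LT W3.5, of mads1 HT W2.5 or of mads1 HT W3.5. The WT count of 3 became 5 without replicate 1 of WT LT W2.5. It was 11, with 9 higher and 2 lower, in a fit of only the compared groups, and 8, with 6 higher and 2 lower, without the 2 uneven mads1 libraries.

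Both stage tests called HORVU1Hr1G015050 and HORVU5Hr1G070740, each higher at W3.5. HORVU1Hr1G015050 rose by 1.03 (log2, SE 0.20, adjusted p = 0.000751, edgeR) in mads1 and by 1.33 (SE 0.22, adjusted p = 0.00032, edgeR) in WT. HORVU5Hr1G070740 rose by 0.65 (SE 0.07, adjusted p = 1.08e-06, edgeR) and by 0.38 (SE 0.07, adjusted p = 0.00161, edgeR).

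The genotype difference itself changed between stages for 3 of the 27 rising genes, 2 towards higher mads1 at W3.5 and 1 the other way, against 2.32% and 1.94% of the 18722 genes. Of the 12 falling genes 1 was called. HORVU2Hr1G016470 moved by 1.42 (log2, SE 0.34, adjusted p = 0.0268, edgeR) and HORVU4Hr1G047430 by 1.10 (SE 0.20, adjusted p = 0.00482, edgeR). As the mean of both temperatures both genes thus stood closer to WT at W3.5. By the levels given above, it was warm mads1 that moved towards WT. In cool mads1 HORVU2Hr1G016470 stayed far below WT and HORVU4Hr1G047430 near it at both stages. With replicate 3 of WT HT W2.5 kept both missed the threshold (adjusted p = 0.0843 and 0.0827, edgeR). The count of 3 was 9 without replicate 1 of mads1 LT W3.5, 7 without replicate 1 of mads1 HT W3.5, 5 without replicate 3 of mads1 HT W3.5, and 1 without replicate 3 of mads1 LT W3.5 or replicate 2 of WT HT W2.5. The falling count of 1 became 3 without replicate 1 of mads1 LT W3.5.

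The 1 library that the rule did not use can be set against the choice. Of the 27 rising genes expressed in WT, 8 had a ratio between 0.67 and 1.5 in replicate 3 of WT HT W2.5 over the WT LT W2.5 mean, with 6 above and 13 below. Of the 12 falling genes, 5 were within, 1 above and 6 below. Among 13831 genes that met the WT condition and reached 1 CPM in a WT group, 25.1% were within. For most of these members that library thus lay outside the limits, as it did for most genes at that level. Of the genes quiet in WT, 48 of 53 rising and 33 of 34 falling were within the limits, against 94.7% of all quiet genes that met the WT condition, a share that the added 0.5 CPM largely fixes. It stood at least 3 times above the highest other WT library for 4 members, all rising, a share of 3.17% against 3.14% of the 18722 genes.

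Identifiers carry a chromosome number and an order along it. By that number 14 of the 46 falling genes lay on chromosome 2 (30.4%, against 16.2% of the 18722 genes) and 1 on chromosome 7 (2.17%, against 14.2%). Another member of the same direction lay within 10 identifier places for 12 rising and 4 falling genes, a count for which no share over all genes was computed. The 12 include both runs of neighbouring identifiers named above, whose genes rested on 1 library in each warm mads1 group. Within 300 places of HvMADS1 on chromosome 4 lay 3 rising genes (3.75%) and 3 falling genes (6.52%), HORVU4Hr1G068780 among the latter, against 1.85% of the 18722 genes. The median length in the deposited table was 764.5 bases for falling genes quiet in WT and 1435.5 for those expressed there, 1402.5 for rising genes and 1510.5 for the 18722 genes. These positions and lengths were looked at after the members were known and are given as a description.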

How the data were processed

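TruSeq libraries were made from RNA of pooled spikes, per the labels' protocols. The submitters' processing notes name HISAT2 and HTSeq; the sources used here give no version, build, annotation or strand setting. The authors deposited raw counts for each identifier and FPKM values, which equal those counts scaled by gene length and library total (largest relative difference 9.9e-08) and gave only lengths here. Counts of overlapping genes, antisense genes or close copies are uncertain.

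Members and lists were chosen with earlier results of these data known. CPM were computed from the counts. Tests used R 4.3.3 and edgeR 4.0.16 (filterByExpr, TMM, 8 group means, 23 libraries, 5 contrasts); SE was taken as the log2 fold change divided by √F. On simulated counts for genotype at W2.5 (17781 genes), the test recovered 95% of the 2-fold and 100% of the 4-fold changes; 4.41% of its calls were false. The floors cover counting error only, while SD and SE include the spread between replicate libraries.

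Named identifiers are at most 2 rising and 2 falling per family: the largest smaller log2 ratio among non-overlapping members at 5 CPM or more (expressed or quiet in WT), those at the limits, and those called in both genotype or both stage tests. Others were chosen after their values were seen. Alternatives were other scaling, no filter, DESeq2 1.42.0, only the compared groups, a replicate block, other limits of the rule, leaving out each library and, added later, the 2 uneven libraries together.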

Additional observations from a re-analysis of the deposited data

Results flagged for a closer look

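HORVU2Hr1G016470, a rising gene expressed in WT, had a genotype difference that changed between stages by 1.4244 on the log2 scale (edgeR interaction test over the mean of both temperatures, adjusted p = 0.0268). The same group means entered the rule, so the test is not independent of the choice of the gene. The range over single libraries left out was 1.23 to 1.83, and the adjusted p passed 0.05 without replicate 2 of mads1 LT W2.5 (0.0549), without replicate 3 of mads1 LT W3.5 (0.0631), without replicate 2 of WT HT W2.5 (0.0552) and with replicate 3 of WT HT W2.5 kept (0.0843).

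HORVU4Hr1G047430, a falling gene expressed in WT, had a genotype difference that changed between stages by 1.10384 (adjusted p = 0.00482, edgeR). It ranged from 0.98 to 1.27 over single libraries left out and missed the threshold with replicate 3 of WT HT W2.5 kept (1.03, adjusted p = 0.0827). Cool mads1 was near the WT level at both stages, so this change partly restates the warm departure behind the choice of the gene.

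Replicate 3 of WT HT W2.5, which neither the choice of genes nor the main tests used, held 4 of the 126 members at 3 times or more the highest other WT library, with 0.5 CPM added. All 4 were rising genes, and the share, 3.17%, stood beside 3.14% of the 18722 genes.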

How the results depend on the processing

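The number of rising genes was 80, and 134 with 0.1 CPM added in place of 0.5, 31 with a mads1 ratio of at least 3, 52 with narrower WT limits, and 33 without the 2 uneven libraries; leaving out single libraries gave 40 to 103. The number of falling genes was 46, and 81 with 0.1 CPM, 24 at a ratio of at most 1/3, 29 at a mean of 1 CPM or more, and 42 to 51 with single libraries left out. Of the 134 and 81, 53 and 34 were among the members.

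With replicate 3 of WT HT W2.5 kept, the calls over all genes went from 1595 to 1031 (genotype, W2.5), from 4347 to 855 (genotype, W3.5), from 4318 to 1119 (stage in mads1) and from 798 to 61 (genotype by stage). The falling genes called then numbered 7 (genotype, W2.5), 1 (stage in mads1), 1 (stage in WT) and 0 (genotype by stage), and the rising ones 1 (genotype by stage). Without the 2 uneven libraries, genotype by stage had 472 calls and 7 rising genes, stage in WT 8 rising and 2 falling genes, and stage in mads1 1 falling gene. DESeq2 gave 1500 calls and 7 rising genes for genotype by stage and 1 falling gene for stage in WT. Without the filter, 5 rising genes were called for genotype by stage and 1 falling gene for stage in WT. With only the compared groups, 11 rising and 3 falling genes were called for stage in WT. The cause was not tested.

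Leaving out single libraries, calls over all genes ran from 1039 to 1701 (genotype, W2.5), 2861 to 6230 (genotype, W3.5), 1598 to 4187 (stage in WT) and 224 to 3196 (genotype by stage). Rising genes called ran from 10 to 17 (stage in mads1), 3 to 5 (stage in WT) and 1 to 9 (genotype by stage), and falling genes from 1 to 4, 0 to 1 and 1 to 3. No named value changed sign.

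Replicate numbers did not pair the libraries: same-numbered ones had a median correlation of deviations of 0.0168 against -0.00967 for the others, and 7 of 23 correlated best with their own number. With the number as a block, calls were 1587, 4437, 4248, 3576 and 956 in the 5 tests, rising genes 14, 14, 11, 3 and 4, and falling genes 4, 4, 3, 0 and 1, all within 1.5 times the counts without it.

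Counts limit what can be seen in genes quiet in WT, where 1 to 3 reads separate presence from absence.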
